A study of Mus musculus with 6 samples.

Results

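A set of 8 ligand and receptor genes through which B cells costimulate or restrain T cells were followed in Peyer's patch B cells of the mouse, comparing germinal center (GC) with naive cells. They are Cd80, Cd86, Cd83, Icosl, Cd274 (PD-L1), Pdcd1lg2 (PD-L2), Tnfrsf14 (HVEM) and Btla. They were chosen by name, as the rows whose Ensembl identifier carries these symbols, and make up 8 of the 39179 gene identifiers of the RNA-Seq table. GC B cells were sorted as Fas+GL7+ and naive, that is resting, B cells as Fas-GL7- from ileal Peyer's patches of wild-type C57BL/6 littermates, all of them female and 12 weeks old. The labels name no treatment, and all mice were wild type. Each population was measured in 3 pools of 5 mice (6 pools in all), so that p-values measure the spread between pools and not between single mice.

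T cells need a further signal beside the antigen receptor, and B cells deliver it through ligands of the B7 family. CD80 and CD86 bind the activating receptor CD28 and the inhibitory receptor CTLA-4 on T cells, ICOSL binds ICOS, and PD-L1 and PD-L2 bind the inhibitory receptor PD-1, which T follicular helper cells carry at high density. In the GC these contacts take place in the light zone, where B cells present antigen to T follicular helper cells and compete for their help.

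Of the 8 genes, 7 differed between GC and naive B cells, 2 of them higher in GC B cells (Cd86 and Cd80) and 5 lower (Cd274, Pdcd1lg2, Icosl, Cd83 and Btla), while Tnfrsf14 did not pass the test. Differences are given as log2 fold changes of TPM + 1 (transcripts per 1000000, a level per transcript length), GC minus naive, with their standard error and the Benjamini-Hochberg adjusted p of limma over all genes tested, called at an adjusted p under 0.05. The populations differed widely, with 65.6% of the 12785 tested genes called, 35.5% higher and 30.1% lower in GC B cells, and with 70.7% of genes not overlapping between the GC and naive pools. The split depended on the scaling: 54.1% of called genes were higher in GC B cells here, 50.4% with FPKM as deposited and 47.8% with quantile normalization. Against this background 7 called genes of 8, and 7 of 8 without overlap between pools, are not unusual in number. The median log2 fold change of the 8 genes was -1.11, beside 0.03 over all tested genes, and their median absolute log2 fold change was 1.76, beside 0.54. All 8 passed the filter of at least 1 TPM in at least 3 pools, but Cd80 passed it only through the GC pools, so that its inclusion depended on the group in which it was high. Its call is counted among the 7 but is not read as a test, and no p is given for it.

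**Figure D1:**
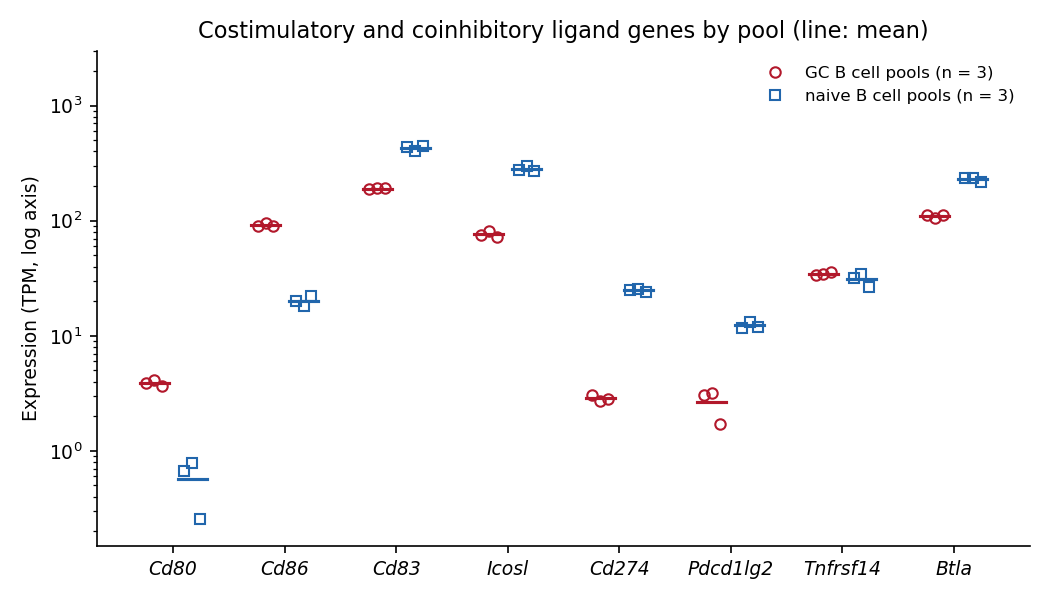
Expression of the 8 genes in each pool, in TPM on a log axis, with GC pools as red circles, naive pools as blue squares and the mean of 3 pools as a line. The pools of the populations are apart for every gene but Tnfrsf14, with the GC pools above for Cd80 and Cd86 and below for the other 5.

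The GC and resting markers followed the sort. The 7 GC markers, Fas of the gate among them, summed to 1590 to 1632 TPM in GC pools against 52.1 to 58.3 TPM in naive pools, and the 6 measured markers of resting B cells to 110 to 121 TPM against 1630 to 1729 TPM. The 7 general B cell markers summed to 4497 to 4539 TPM in GC and 6760 to 6964 TPM in naive pools. Of these, 6 were lower in GC pools and 1 higher (median log2 fold change -0.62), with Cd79a at -1.12 (limma adjusted p = 9.89e-07). Approximate depth, read from the steps between low FPKM values, was 9900000 to 11000000 reads in the GC pools and 9700000 to 16200000 reads in the naive pools. Pools of a population correlated at 0.963 to 0.972 and pools of different populations at 0.806 to 0.814 (Pearson's r of log2(TPM + 1) across genes, which are not independent replicates).

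Of the genes, 3 lie on mouse chromosome 16 and 2 on chromosome 19 (all coordinates GRCm38.p6). Cd86 spans 36568956 to 36666158, Cd80 38457430 to 38495958 and Btla 45223705 to 45252895 on chromosome 16. Cd274 spans 29362107 to 29388095 and Pdcd1lg2 29410919 to 29472927 on chromosome 19, with 22824 bases between the end of Cd274 and the start of Pdcd1lg2. Cd83 lies on chromosome 13 (43785112 to 43803133), Icosl on chromosome 10 (78069368 to 78079525) and Tnfrsf14 on chromosome 4 (154918487 to 154928620). RefSeq places a pseudogene or noncoding RNA inside or across Cd80, Icosl and Cd274, and the protein-coding gene Plgrkt across the first 5186 bases of Cd274. The use of strand in counting is not given in the sources used here, and reads from such overlaps may then not be told apart.

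RefSeq promoter windows, from 250 bases before to 50 bases after a transcript start (GRCm38.p6), were found for 6 of the 8 genes, namely Cd80, Icosl, Cd274, Pdcd1lg2, Tnfrsf14 and Btla. They are shown for the PD-1 ligands, which were lower in GC B cells, and for Cd80, which was higher. Each holds a letter match to a motif of a B cell regulator. The windows of Tnfrsf14 and Btla also hold a match and are not shown, and that of Icosl, which was lower too, holds none. The capitals mark the match, on either strand, to the core of interferon regulatory factors (GAAANNGAA) in Cd274 and to an E-box of the kind bound by E2A (CAGCTG) in Pdcd1lg2 and Cd80. The windows are chr19:29367188-29367487 for Cd274, chr19:29410669-29410968 for Pdcd1lg2 and chr16:38458683-38458982 for Cd80, all on the plus strand, each written 5′ to 3′. The start used for Pdcd1lg2 is that of the annotated gene, while those of Cd274 and Cd80 lie inside it, and the window of Cd274 also holds the outer end of Plgrkt.
Cd274: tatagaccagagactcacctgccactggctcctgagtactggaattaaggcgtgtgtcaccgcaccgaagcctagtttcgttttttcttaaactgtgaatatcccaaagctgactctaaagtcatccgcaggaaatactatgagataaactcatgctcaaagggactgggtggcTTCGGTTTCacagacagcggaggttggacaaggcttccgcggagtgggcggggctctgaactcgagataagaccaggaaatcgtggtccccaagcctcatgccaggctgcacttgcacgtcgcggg
Pdcd1lg2: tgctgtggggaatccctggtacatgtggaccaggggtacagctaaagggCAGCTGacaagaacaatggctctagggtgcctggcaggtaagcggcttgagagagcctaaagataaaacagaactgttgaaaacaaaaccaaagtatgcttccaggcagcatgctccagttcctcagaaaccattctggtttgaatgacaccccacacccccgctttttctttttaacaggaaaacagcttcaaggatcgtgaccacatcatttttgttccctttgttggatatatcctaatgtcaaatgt
Cd80: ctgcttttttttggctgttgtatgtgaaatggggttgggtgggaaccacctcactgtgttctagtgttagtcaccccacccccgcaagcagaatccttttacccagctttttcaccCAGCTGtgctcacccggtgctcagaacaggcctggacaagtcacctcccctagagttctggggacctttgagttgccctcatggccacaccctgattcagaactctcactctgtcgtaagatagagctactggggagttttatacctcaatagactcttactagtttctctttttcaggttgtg

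The match began 76 bases before the start in Cd274, 201 bases before it in Pdcd1lg2 and 134 bases before it in Cd80. The interferon regulatory factor core stood in 3 of the 6 windows (Cd274, Tnfrsf14 and Btla) and in 8.56% of 32851 RefSeq promoter windows of the same length. CAGCTG stood in 3 of the 6 (Cd80, Pdcd1lg2 and Btla) and in 16.3% of all windows. TTCNNNGAA, the core shared by STAT factors and BCL6, stood in none of the 6 and in 8.30% of all. Genes that rose and genes that fell both held a match, and a match describes letters, not binding.

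Cd86 and Cd80, the ligands of CD28 and CTLA-4, were both higher in GC B cells, at very different levels. Cd86 (ENSMUSG00000022901) stood at 89.9, 95.6 and 89.8 TPM in GC pools 1, 2 and 3 and at 20.0, 18 and 22.1 TPM in naive pools 1, 2 and 3. All GC pools were above all naive pools, with means of 91.7 ± 3.33 and 20.0 ± 2.07 TPM (SD, n = 3 each). This is a 4.58-fold higher level in GC B cells, with a log2 fold change of 2.14 ± 0.08 (SE; limma adjusted p = 2.53e-06), and 5.12% of tested genes had a fold change at or above it. In bulk RNA of a sorted population, a larger share of cells that express a gene and more RNA of it per cell cannot be told apart. Cd80 (ENSMUSG00000075122) stood at 3.87, 4.15 and 3.67 TPM in the GC pools, against 0.675, 0.780 and 0.258 TPM in the naive pools. The GC pools were again all above the naive ones, but Cd80 was the lowest of the 8 genes in naive B cells, where about 2 to 19 reads per pool stood behind its values. Because Cd80 passed the filter only through the GC pools, its values are given without a test. Its means were 3.90 ± 0.244 and 0.571 ± 0.276 TPM (SD, n = 3 each), a ratio of 6.82, and its log2 fold change was 1.65 ± 0.17. Because the naive level is below 1 TPM, this size depends on the pseudocount, and it came to 2.89 with 0.01 TPM and 2.67 with 0.1 TPM added in place of 1.

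The share of Cd80 within the pair could not be shown to differ. The ratio of Cd86 to Cd80 was 23.2, 23.0 and 24.5 in the GC pools and 29.7, 23.0 and 85.7 in the naive pools. The ranges overlapped, and the mean log2 ratio differed by -0.72, GC minus naive (two-sided exact permutation test over pools, p = 0.3, adjusted p = 0.3 over 4 pairs). The difference was -0.15 without naive pool 3, the pool with the lowest Cd80, -1.10 without naive pool 2, and 0.49 with 1 TPM added to both genes. With 3 pools against 3, the smallest p this test can give is 0.1.

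Cd83 was the most abundant of the 8 genes in both populations and was lower in GC B cells. CD83 is an activation marker of dendritic cells and B cells whose transmembrane part protects CD86 and MHC class II from the ubiquitin ligase MARCH1. Cd83 (ENSMUSG00000015396) stood at 189, 191 and 191 TPM in the GC pools, against 441, 402 and 450 TPM in the naive pools. The GC pools lay close together and all below the naive ones. The means were 190 ± 1.16 and 431 ± 25.4 TPM (SD, n = 3 each), 2.26-fold higher in naive B cells, with a log2 fold change of -1.17 ± 0.05 (limma adjusted p = 4.10e-06). Cd83 thus moved against Cd86, and the ratio of Cd83 to Cd86 was 2.10, 2.0 and 2.12 in the GC pools and 22.0, 22.4 and 20.4 in the naive pools. This 10.4-fold difference in ratio was the largest of the 4 pairs compared and had no overlap between pools (exact permutation p = 0.1, adjusted p = 0.1, the smallest possible).

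Icosl, whose protein engages ICOS on T follicular helper cells, was also lower in GC B cells. Icosl (ENSMUSG00000000732) stood at 75.5, 81.7 and 72.9 TPM in the GC pools, against 275, 297 and 269 TPM in the naive pools. The highest GC pool was far below the lowest naive pool. The means were 76.7 ± 4.51 and 280 ± 15.2 TPM (SD, n = 3 each), 3.66-fold higher in naive B cells, with a log2 fold change of -1.86 ± 0.06 (limma adjusted p = 1.40e-06). With this difference Icosl stood next below Cd83 in naive B cells but behind others in GC B cells, where Cd86 and Btla stood above it.

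Cd274 and Pdcd1lg2, the PD-1 ligands, had the lowest levels of the 8 genes in GC B cells. Cd274 (ENSMUSG00000016496) stood at 3.03, 2.71 and 2.84 TPM in the GC pools, against 25.2, 25.5 and 24.2 TPM in the naive pools. The pools of each population lay close together and far from the other population. The means were 2.86 ± 0.160 and 25 ± 0.681 TPM (SD, n = 3 each), 8.73-fold higher in naive B cells, and the log2 fold change of -2.75 ± 0.08 (limma adjusted p = 9.21e-07) was the largest of the 8 in size, with 1.87% of tested genes at or below it. Pdcd1lg2 (ENSMUSG00000016498) stood at 3.07, 3.18 and 1.71 TPM in the GC pools, against 11.8, 13.1 and 12.0 TPM in the naive pools. GC pool 3 was the lowest, with about 18 to 36 reads behind the values of the GC pools. The means were 2.66 ± 0.818 and 12.3 ± 0.683 TPM (SD, n = 3 each), 4.62-fold higher in naive B cells, with a log2 fold change of -1.89 ± 0.19 (limma adjusted p = 1.67e-04).

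The ratio of Cd274 to Pdcd1lg2 was 0.987, 0.852 and 1.66 in the GC pools and 2.14, 1.95 and 2.02 in the naive pools. It was 1.82-fold lower in GC B cells with no overlap between pools (exact permutation p = 0.1, adjusted p = 0.1), GC pool 3 being the nearest to the naive pools. As sums, Cd80 and Cd86 together came to 93.7, 99.7 and 93.4 TPM in the GC pools, against 20.7, 18.8 and 22.4 TPM in the naive pools, and Cd274 and Pdcd1lg2 together to 6.10, 5.90 and 4.56 TPM and 37.1, 38.6 and 36.2 TPM. The CD28 ligand transcripts were therefore 15.4 to 20.5 times the PD-1 ligand transcripts in GC B cells, while in naive B cells the PD-1 ligand transcripts were 1.62 to 2.06 times the CD28 ligand transcripts.

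Plgrkt, a plasminogen receptor gene that overlaps the annotated start of Cd274, was lower in GC B cells together with the PD-1 ligands, whereas the tested genes farther out were not lower. Plgrkt stood at 42.6, 49.3 and 41.0 TPM in the GC pools, against 123, 131 and 111 TPM in the naive pools, with a log2 fold change of -1.44 (limma adjusted p = 2.48e-05). On its far side, Insl6 had -0.14 (adjusted p = 0.637) and Jak2, a cytokine receptor kinase gene, 0.11 (adjusted p = 0.213). Beyond Pdcd1lg2, Ric1 had 0.11 (adjusted p = 0.573) and Ermp1 was higher in GC B cells by 0.56 (adjusted p = 0.00350). These neighbours are the nearest tested genes by position, looked up after the values of the PD-1 ligands had been seen.

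**Figure D2:**
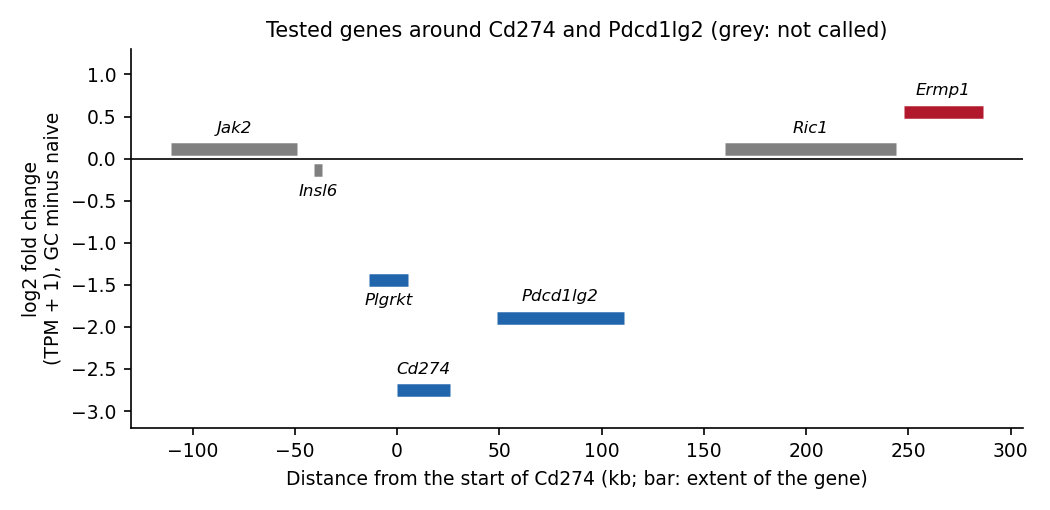
Log2 fold change of TPM + 1 (GC minus naive, limma) of the tested genes around Cd274 and Pdcd1lg2, against the distance from the start of Cd274 in kilobases, each bar spanning a gene (red higher in GC B cells, blue lower, grey not called). Plgrkt, Cd274 and Pdcd1lg2 lie at -1.44, -2.75 and -1.89, and the other 4 genes between -0.14 and 0.56.

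Among the neighbours of the other genes, Ildr1, which starts 27820 bases after Cd86, was higher in GC B cells with 56.8 against 3.71 TPM (log2 fold change 3.62, limma adjusted p = 2.88e-07). Slc15a2, the next tested gene, was higher by 1.24 (adjusted p = 3.43e-04). Cd200, a coinhibitory ligand gene 129216 bases after Btla, was lower like Btla, with -1.43 (adjusted p = 2.94e-04), but Gcsam, the GC marker gene after it, was higher by 7.83 (adjusted p = 5.28e-08).

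Tnfrsf14 and Btla encode a ligand and receptor pair that B cells carry together. HVEM binds BTLA, CD160 and LIGHT, and BTLA is an inhibitory receptor on B and T cells. Tnfrsf14 (ENSMUSG00000042333) stood at 33.6, 34.2 and 35.5 TPM in the GC pools, against 31.7, 34.5 and 26.4 TPM in the naive pools. The ranges overlapped. The means were 34.4 ± 0.986 and 30.9 ± 4.09 TPM (SD, n = 3 each), and the log2 fold change of 0.16 ± 0.10 had a 95% confidence interval from -0.09 to 0.41 (limma adjusted p = 0.213). Btla (ENSMUSG00000052013) stood at 113, 105 and 112 TPM in the GC pools, against 235, 236 and 218 TPM in the naive pools. It was lower in every GC pool, with means of 110 ± 4.78 and 230 ± 10.1 TPM (SD, n = 3 each), 2.09-fold higher in naive B cells, and a log2 fold change of -1.06 ± 0.05 (limma adjusted p = 8.37e-06). The ratio of Tnfrsf14 to Btla was 0.296, 0.327 and 0.317 in the GC pools and 0.135, 0.146 and 0.121 in the naive pools. It was 2.34-fold higher in GC B cells with no overlap (exact permutation p = 0.1, adjusted p = 0.1), and the receptor's transcript exceeded the ligand's in every pool of both populations.

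**Figure D3:**
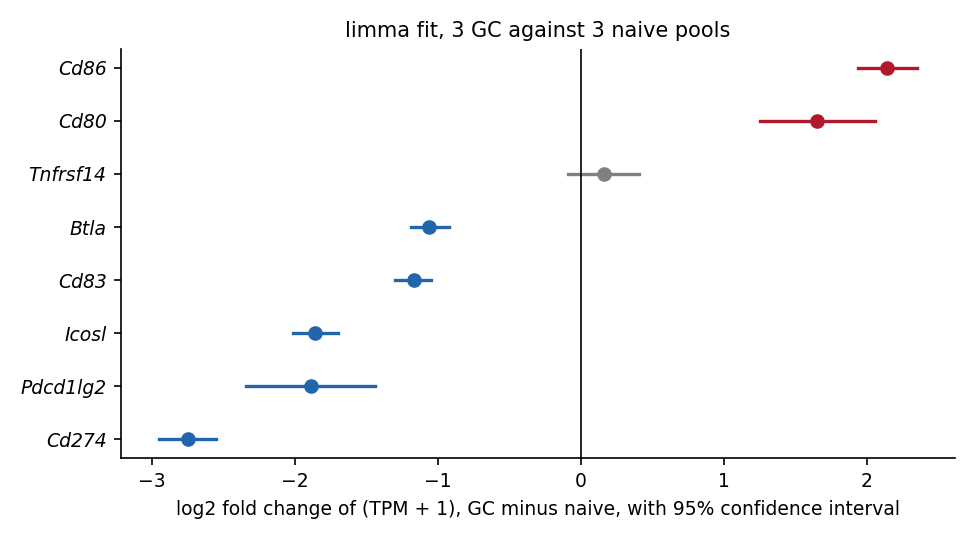
Log2 fold change of TPM + 1 (GC minus naive) of the 8 genes with its 95% confidence interval from the limma fit over 3 GC and 3 naive pools, red higher in GC B cells, blue lower and grey not called. Cd86 lies highest at 2.14 and Cd274 lowest at -2.75, and the interval of Tnfrsf14 includes 0.

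**Figure D4:**
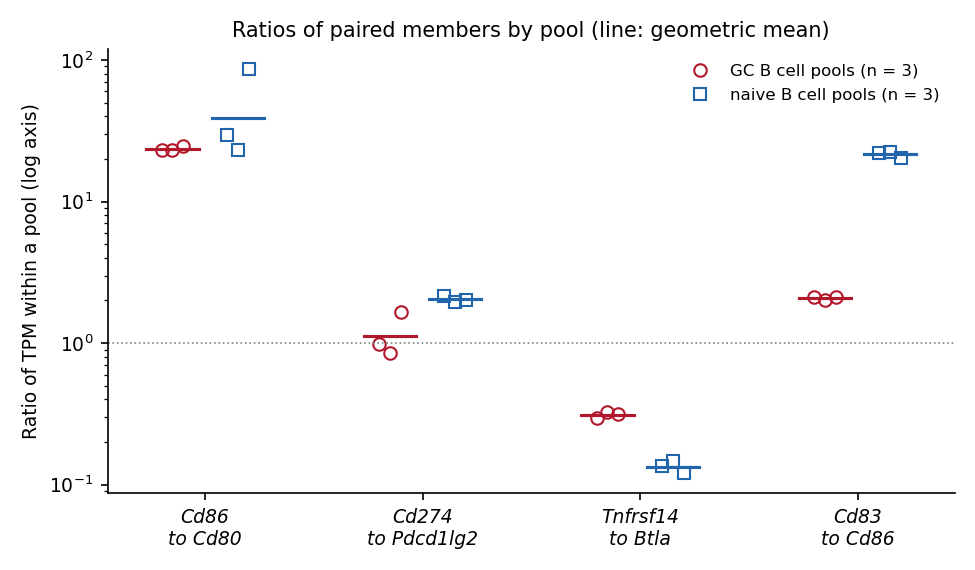
Ratio of the TPM of paired genes within each pool on a log axis, GC pools as red circles, naive pools as blue squares and the geometric mean as a line. The pools overlap for Cd86 to Cd80 and are apart for the other 3 pairs, most of all for Cd83 to Cd86.

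Ranked by mean TPM, the order in GC B cells was Cd83, Btla, Cd86, Icosl, Tnfrsf14, Cd80, Cd274 and Pdcd1lg2. Only Cd274 and Pdcd1lg2 were neighbours whose ranges over pools overlapped. In naive B cells the order was Cd83, Icosl, Btla, Tnfrsf14, Cd274, Cd86, Pdcd1lg2 and Cd80, and no neighbours overlapped. Cd86 and Cd274 changed places, since Cd86 stood 1.25-fold below Cd274 in naive B cells and far above it in GC B cells. Among all tested genes, Cd86 stood at percentile 52.1 of expression in naive B cells and 85.7 in GC B cells, and Cd274 at 57.7 and 16.5.

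Cell types that could bring these transcripts into a sort were read from their markers. The 9 T cell markers summed to 4.01 to 7.79 TPM in GC and 5.36 to 7.88 TPM in naive pools, with Lat highest at 1.87 and 3.93 TPM. The 12 markers of dendritic cells and macrophages summed to 33.1 to 36.1 TPM in GC and 6.13 to 9.46 TPM in naive pools, of which Flt3 alone gave 31.4 and 1.24 TPM. The other 11 summed to 3.16 to 3.50 TPM in GC and 5.12 to 8.06 TPM in naive pools, the opposite direction as a sum. Singly they were mixed, with Lyz2 at 1.28 and 3.30 TPM and Itgax at 0.906 and 0.786 TPM. The part of these cells in the results was not tested. The 10 markers of intestinal epithelium summed to 53.8 to 116 TPM in GC and 133 to 170 TPM in naive pools, a lower sum in GC pools, as for the 5 lower genes. Of the 9 tested, 5 were lower in GC pools, 2 higher (Krt18, 0.59, limma adjusted p = 0.0166, and Lgr5, which passed the filter only through the GC pools, at 1.72 against 0.186 TPM) and 2 not called (Krt19 and Muc2). Over all tested genes, 30.1% were lower and 35.5% higher. Of 15 other settings, the lower calls held in 7 for Fabp2, 9 for Krt20, 12 for Vil1, 14 for Epcam and 15 for Krt8. Without GC pool 1, only 1 of the 9 was called lower. Fabp2, an intestinal fatty acid binding protein gene and the highest of them, reached 65.4 TPM in GC pool 2 and 24.6 and 20.4 TPM in GC pools 1 and 3, against 64.5 to 77.6 TPM in naive pools, and Krt8, Krt19, Krt20 and Vil1 were also above 10 TPM in naive pools on average. GC pool 2, with Fabp2 as high as in naive pools, was the lowest GC pool for Cd274 (2.71 TPM) and Btla (105 TPM) and the highest for Icosl (81.7 TPM) and Pdcd1lg2 (3.18 TPM), and the part of these cells was not tested. The 7 measured markers of follicular dendritic and stromal cells summed to 2.35 to 2.97 and 1.44 to 2.69 TPM (Clu highest, 1.78 and 1.15 TPM), with Pdpn at 0 in every pool.

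Memory and plasma cells bear on the same genes, since CD80 and PD-L2 mark memory B cell subsets. The 5 other measured markers of memory or switched B cells summed to 1014 to 1083 TPM in GC and 15 to 18.5 TPM in naive pools, with Ighg1 at 841 and 1.17 TPM, Ighg2c at 157 and 4.37 TPM and Nt5e (CD73) at 48.3 and 0.419 TPM. Spn was lower in GC B cells like Pdcd1lg2, at 2.89 against 7.63 TPM (-1.15, limma adjusted p = 7.08e-04), and Zbtb32 was not called, at 3.75 and 3.02 TPM (adjusted p = 0.202). Plasma cell markers summed to 787 to 823 TPM in GC and 219 to 252 TPM in naive pools, mostly Jchain (669 and 33.3 TPM), and Xbp1 (104 and 120 TPM) and Irf4 (21.7 and 76.4 TPM), which B cells also express, were above 10 TPM. Their part in the results was not tested.

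Other genes of the pathway were taken from lists and described by counts, which stand beside 65.6% called, 35.5% higher and 30.1% lower over all tested genes. Btn2a2, Cd70 and Tnfrsf8 passed the filter only through the GC pools and Tnfsf10 only through the naive pools, so that they had to differ, and their values are given without a test. Among the other B7 and butyrophilin genes, 4 of 9 were tested, of which 2 were higher in GC B cells and 2 lower (median log2 fold change 0.23). Btnl2, a butyrophilin-like inhibitor of T cells, stood at 77.5, 72.1 and 74.0 TPM in the GC pools, against 14.1, 14.3 and 12.2 TPM in the naive pools. Its log2 fold change of 2.38 (limma adjusted p = 1.25e-06) was close to that of Cd86, and Btn2a2, a butyrophilin of the same kind, had means of 2.05 and 0.570 TPM. Vsir (VISTA), an inhibitory B7 relative, was lower at -1.31 (adjusted p = 8.95e-04), as was Cd276 (B7-H3) at -0.50 (adjusted p = 0.0412), a call that held in 4 of 13 other settings. Vtcn1 and Ildr2 were listed at 0 in every pool, and Btn1a1 in all but GC pool 1 (0.0827 TPM).

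None of the 6 T cell-side receptors and ligands of these molecules passed the filter. Cd28, Ctla4, Icos, Pdcd1 and Cd160 had means of 0.157, 0.622, 0.262, 0.462 and 0.597 TPM in GC B cells and 0.0622, 0.243, 0.0720, 0.104 and 0.434 TPM in naive B cells. Tnfsf14 (LIGHT), a ligand of HVEM, stood at 0.896, 1.15 and 1.66 TPM in GC pools and at 0, 0.0547 and 0 TPM in naive pools. These 5 receptors were thus below 1 TPM on average in both populations.

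Of the TNF family costimulatory ligands, 4 of 8 were tested and 3 were higher, 1 lower (median 0.77). Tnfsf9 (4-1BB ligand) stood at 23.7, 20.0 and 23.8 TPM in GC pools and 2.17, 2.01 and 1.14 TPM in naive pools, a log2 fold change of 3.10 (limma adjusted p = 1.35e-05). Cd70, the CD27 ligand, stood at 1.52, 1.04 and 1.06 TPM in GC pools and was listed at 0 in all naive pools. Ltb (lymphotoxin beta), the highest, had means of 289 and 696 TPM and a log2 fold change of -1.26 (adjusted p = 3.60e-06), and Lta (lymphotoxin alpha) of 82.1 and 61.7 TPM, a log2 fold change of 0.41 (adjusted p = 0.00121). Of the receptors, 5 of 7 were tested, with 1 higher, 3 lower and 1 not called (median -0.40). Tnfrsf8 (CD30) averaged 6.46 TPM over the GC pools against 0.0226 TPM over the naive ones, and its log2 fold change ran from 2.48 to 7.92 over other settings, the pseudocount among them. Tnfrsf18 (GITR) was lower, at 1.32 against 19.4 TPM (-3.16, adjusted p = 2.21e-05). Cd40, through which B cells receive T cell help, was the highest, with means of 127 and 168 TPM and a log2 fold change of -0.40 (adjusted p = 0.00112). Tnfrsf4 (OX40) was lower at -0.75 (adjusted p = 0.0259, a call that held in 11 of 15 other settings), and Cd27 was not called, with -0.03 (adjusted p = 0.898).

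Among the other coinhibitory ligands, 6 of 10 were tested and all 6 were lower in GC B cells (median -1.54, beside 0.03 and 30.1% lower over all tested genes). For Tnfsf10 the filter fixed the direction. The shared direction depends on how the lists were drawn. Of the genes counted with the B7 genes, Btnl2 was higher, and Vsir and Cd276 were lower. Btn2a2 was higher too, but for it the filter fixed the direction. Of the untested ligands, Nectin2 averaged 1.06 TPM in GC and 0.496 TPM in naive pools, and Nectin3 0.125 and 0.345 TPM. Lgals9 (galectin-9), a ligand of TIM-3, stood at 3.57, 8.32 and 4.17 TPM in GC pools and at 93.4, 96.5 and 94.2 TPM in naive pools (log2 fold change -3.99, limma adjusted p = 2.47e-05). Ceacam1, another TIM-3 ligand, stood at 5.88, 7.0 and 6.88 TPM and at 41.7, 41.6 and 34.2 TPM (-2.40, adjusted p = 5.53e-06). Cd200, whose receptor restrains myeloid cells, had means of 25.4 and 68.8 TPM, and the other 3 were Lgals3 (-1.61), Tnfsf10 (means of 0.212 and 2.38 TPM) and Pvr (-1.08), whose product also binds the activating receptor CD226. Intestinal epithelium expresses galectins and Ceacam1 too, its summed markers were lower in GC pools although 2 of them were higher, and within GC B cells pool 2 was highest for Fabp2, Lgals9 and Lgals3, whose part in the result was not tested. Of the other coinhibitory receptors 1 of 9 was tested, Sirpa, at means of 5.83 and 4.37 TPM (log2 fold change 0.34, adjusted p = 0.154).

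Of the genes listed for the turnover and trafficking of CD80, CD86 and PD-L1, 7 of 8 were tested, with 1 higher, 4 lower and 2 not called (median -0.22). This is a share of calls near the 65.6% over all tested genes. The lower ones include Lrba and Def6, listed here although they act on CTLA-4, so the count is not one of ligand turnover alone. Marchf8, a ubiquitin ligase that removes CD86 and MHC class II, stood at 5.39, 6.09 and 6.26 TPM in GC pools and 0.378, 1.56 and 1.77 TPM in naive pools (log2 fold change 1.69, limma adjusted p = 0.00184). Its relative Marchf1, the ligase that CD83 counteracts, was far more abundant, at 72.4, 72.5 and 72.3 TPM against 92.9, 86.3 and 75.7 TPM. The difference of -0.22 (adjusted p = 0.0438) was called in 7 of 15 other settings only. Cmtm6, which keeps PD-L1 from degradation, stood at 42.8, 41.1 and 42.7 TPM in GC pools and 98.8, 104 and 93.0 TPM in naive pools (-1.20, adjusted p = 5.85e-06), lower like Cd274. Stub1 and Spop, ubiquitin ligase genes linked to PD-L1 degradation, were not called, with -0.05 (adjusted p = 0.475) and 0.01 (adjusted p = 0.944) at means between 69.2 and 88.8 TPM. Lrba and Def6, which act in the recycling of CTLA-4, were lower, with means of 3.98 against 10.9 TPM (-1.26, adjusted p = 1.35e-04) and 61.5 against 85.3 TPM (-0.47, adjusted p = 2.35e-04).

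**Figure D5:**
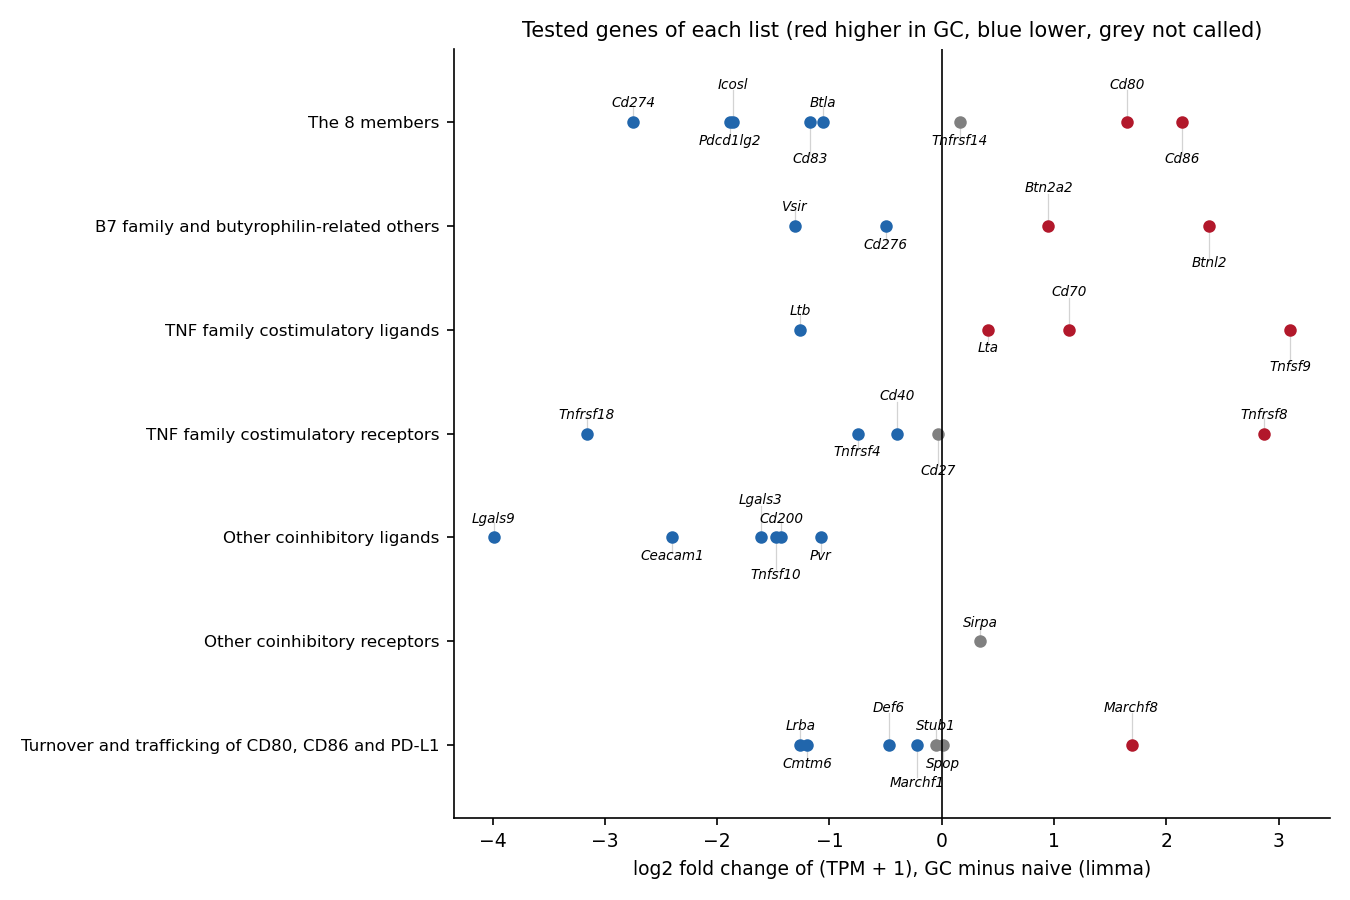
Log2 fold change of TPM + 1 (GC minus naive, limma) of the tested genes in each list, 1 point a gene, red higher in GC B cells, blue lower and grey not called. The 6 other coinhibitory ligands all lie below 0. Of the B7 genes, Btnl2 and Btn2a2 lie above 0 and Vsir and Cd276 below it. The filter fixed the direction of Tnfsf10 and Btn2a2. The 8 genes and the TNF family ligands and receptors spread to both sides.

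The genes nearest to each of the 8 in level and difference, by Euclidean distance over the 6 values of log2(TPM + 1), were named without regard to function. Ngfrap1 came closest to Cd86, at a distance of 0.12 and with means of 92.1 and 19.6 TPM, followed by Idh2, a mitochondrial isocitrate dehydrogenase gene, at 0.40. Osbpl5 (0.19; 3.0 and 26.3 TPM) and Agpat2 (0.34) were nearest to Cd274, and Ide (0.23) and Anxa1 (0.41) to Pdcd1lg2. Fcrla (0.21) and H2-T23 (0.23), which encodes the nonclassical MHC molecule Qa-1, were nearest to Cd83, and Txnip (0.28) and Rabac1 (0.34) to Icosl. Nfkb1 (0.26; 108 and 208 TPM), a subunit gene of NF-kB, and Jund (0.30), of AP-1, were nearest to Btla. Tnfrsf14 had Ube4a (0.16), and Cd80 had Med12l (0.32) and Vsig10 (0.36). None of the 8 genes was the nearest of another.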

How the data were processed

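RNA-Seq of 3 GC and 3 naive B cell pools was analysed. The authors trimmed adapters (cutadapt 1.9), quantified reads with RSEM 1.2.25 against mouse transcripts of NCBIm38 v75 (mean fragment length 180) and deposited the FPKM of each gene in each pool, rounded to 2 decimals. Reads of similar genes are divided by RSEM's model, and levels depend on the transcript lengths it uses. The file holds no counts, so no count test was made.

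TPM was computed from the deposited FPKM as each gene's share of its pool's total, scaled to transcripts per 1000000. Symbols came from the NCBIM37 annotation (33398 of 39179 identifiers), and positions and promoters from RefSeq GRCm38.p6, the build of the transcriptome. The 12785 genes that reached 1 TPM in 3 or more pools were tested with limma 3.58.1 in R 4.3.3 (lmFit, eBayes with a trend) on log2(TPM + 1), a scale that understates changes of low genes. Adjusted p-values are Benjamini-Hochberg values over all tested genes. Ratios of 4 gene pairs were compared with two-sided exact permutation tests in Python 3.11.15 with scipy 1.17.1. The limma fit was also run on simulated data in which only a small share of genes changed, unlike in these data. That run checks the working of the code and not the calls reported here. Read numbers are estimates from the steps of FPKM values and cover counting error only.

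Named genes were the 8 genes, the 2 called genes with the largest difference in each direction and the 2 most abundant of each list, every T cell-side and turnover gene, the 2 nearest profiles of each of the 8, and the highest marker and any above 10 TPM of cells other than B cells. Neighbours, promoters and a few further list genes fall outside this rule and were chosen after values were seen. A few items that the rule names are not reported here. The 8 genes and the lists were chosen with earlier results of these data known. Alternatives covered the pseudocount, the filter, the scaling, the replicate number as a block, the trend and leaving out each pool.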

Additional observations from a re-analysis of the deposited data

How the results depend on the processing

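All 119 alternatives of the 8 genes left each gene's direction and its call as reported, but those of Cd80 are not read as tests, since the filter fixed its direction. The 32 alternatives of the ratios could not pass the threshold by design and are given as values. The ratio of Cd86 to Cd80 changed direction: its log2 difference was -0.72 from TPM and 0.49 from TPM + 1, because the added 1 TPM outweighs the naive level of Cd80. For the called genes other than Cd80, every limma adjusted p stayed under 0.05 over the alternatives. The adjusted p of Tnfrsf14 ran from 0.0758 to 0.485 over 15. Cd80 could not be tested with a filter of 5 TPM, and its log2 fold change ran from 1.43 to 2.89. Without 1 pool at a time, the number of called genes was 7656 to 8101 (8392 with all pools), the log2 ratio difference of Cd86 to Cd80 -1.10 (without naive pool 2) to -0.15 (without naive pool 3), and that of Cd274 to Pdcd1lg2 -1.15 (without GC pool 3) to -0.67. Quantile normalization moved the median log2 fold change of all tested genes by -0.09 and other scalings by less, and turned the split of called genes to 4080 higher and 4450 lower (4540 and 3852 as reported). GC and naive pools share the numbers 1 to 3 in the labels, but nothing states that same-numbered pools share mice, so the numbers were not taken as pairs. The deviations of same-numbered pools from their group means correlated at 0.083, 0.022 and 0.046, and those of differently numbered pools at -0.075 to 0.030. Each GC pool correlated best with the naive pool of its own number. These small values do not settle whether the pools are paired. With the replicate number as a block, 7960 genes were called, and the called genes other than Cd80 kept their calls (Pdcd1lg2 limma adjusted p = 9.36e-04). The paired sign permutation of the ratios could not go below p = 0.25. At this depth, values under 1 TPM rest on a few reads, as for Cd80 in naive pools.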

Other observations

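Genes of the GC light and dark zones give the setting in which these ligands were measured, since the sorted GC B cells hold both zones. Of 15 light zone genes 13 were tested, and 2 were higher in GC B cells, 7 lower and 4 not called (median log2 fold change -0.40), a share of calls near the 65.6% over all tested genes (35.5% higher, 30.1% lower). Slamf1 (59.7 against 34.2 TPM, 0.78, limma adjusted p = 1.15e-04) and Traf1 (98.4 against 71.7 TPM, 0.45, adjusted p = 9.44e-04) were higher. Egr3, an early response gene of antigen receptor signaling (6.46 against 109 TPM, -3.88, adjusted p = 5.46e-07), and Ccr6, a chemokine receptor gene (12.7 against 198 TPM, -3.86, adjusted p = 2.40e-07), were lowest. Lmo2 and Cd40, the most abundant with Nfkbia, had log2 fold changes of -0.83 and -0.40.

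Of 12 dark zone genes, all tested, 9 were higher, 1 lower and 2 not called (median 5.11). The proliferation gene Mki67, which passed the filter only through the GC pools, stood at 228 against 0.785 TPM. Top2a, a topoisomerase gene of dividing cells, had 408 against 4.50 TPM (6.22, limma adjusted p = 1.13e-07). Foxp1 was lower (62.9 against 197 TPM, -1.62, adjusted p = 1.18e-05), and Cxcr4, which holds cells in the dark zone, was not called (356 and 351 TPM, 0.03, adjusted p = 0.803).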
